A study of Homo sapiens with 36 samples.

Results

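HSD11B2 encodes 11β-hydroxysteroid dehydrogenase type 2, the enzyme that turns active cortisol into inactive cortisone. The gene was followed by every probe that the platform annotation assigns to it, which was 1 probe (ILMN_1813350) of 48803 on the array. It was 1 of 12195 genes tested. The transcript was measured in ZR-75-1 cells, a long-established line of estrogen-responsive human breast cancer. Illumina bead arrays were read for 36 RNA samples in 9 groups of 4. The groups were estradiol (E2) with dihydrotestosterone (E2+DHT), E2 with medroxyprogesterone acetate (E2+MPA), a treatment labelled E2s+PROG, E2 with progesterone (E2+PROG), E2 alone, dihydrotestosterone alone (DHT), medroxyprogesterone acetate alone (MPA), progesterone alone (PROG) and ethanol vehicle (VC). All groups, vehicle included, were kept for 48 h in phenol red-free medium with 10% hormone-stripped serum and then treated for 16 h. E2 and DHT were each given at 10 nM. No dose is labelled for MPA, for PROG or for the E2 that accompanied either, and the meaning of the s in E2s+PROG is not stated.

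The enzyme belongs to the short-chain dehydrogenases and uses NAD+ to oxidise cortisol. In the kidney it keeps cortisol away from the mineralocorticoid receptor, which binds cortisol and aldosterone about equally well, so that aldosterone can act. In the placenta it shields the fetus from maternal cortisol. The type 1 enzyme, encoded by HSD11B1, mostly runs the reverse reaction and is supplied with NADPH by the product of H6PD. Of the steroids given here, DHT is a potent androgen, progesterone the natural progestin, and MPA a synthetic progestin derived from progesterone that also binds the androgen and glucocorticoid receptors.

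HSD11B2 was above background (deposited detection p of 0) on 36 of 36 arrays, with deposited intensities between 336.5 and 2376. After background correction, quantile normalization and a log2 transform, its signal ran between 8.48 and 10.96. On the same log2 scale the dimmest probes called above background read 5.86 to 6.21, depending on the array, so that no HSD11B2 value was near the floor. Its residual SD around the group means was 0.173 on the log2 scale, and 7.99% of genes had a smaller one. The median intensity of the arrays ran between 121.6 and 247.5, and 33.2% to 37.9% of probes were detected per array. Of the luminal epithelial markers, 10 of 10 were detected on 36 of 36 arrays. Of 14 basal, fibroblast, leukocyte and endothelial markers on the array, 8 were detected on 0 arrays, among them KRT5, KRT14, PTPRC and CDH5, while COL1A1 and CD68 were detected on all 36, PECAM1 on 34, VWF on 26, DCN on 5 and VIM on 1. Replicates are not labelled as separate cultures, so p-values measure the spread between these arrays, which may be technical, and precision is limited by the 4 arrays of each group.

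Each value below is a log2 signal in the order of replicates 1 to 4. The E2+PROG arrays carried HSD11B2 at 10.72, 10.62, 10.66 and 10.96. The DHT arrays carried it at 10.51, 10.03, 9.98 and 10.11. The MPA arrays carried it at 10.06, 9.81, 9.91 and 10.21. The E2+PROG arrays thus lay above every array of both single-steroid groups. With E2 added to the androgen or to the synthetic progestin the level stayed in the same range. E2+DHT arrays stood at 9.89, 10.02, 10.13 and 9.87. E2+MPA arrays stood at 10.04, 9.99, 9.96 and 9.85. These values were interleaved with those of DHT and MPA. The E2s+PROG arrays read 9.29, 9.57, 9.55 and 9.56, and the PROG arrays read 9.26, 9.25, 8.89 and 9.35. One E2s+PROG array, replicate 1, thus lay among the PROG arrays and apart from the other replicates of its group. E2 arrays read 8.76, 8.70, 8.88 and 8.63, against 8.99, 8.48, 8.55 and 8.90 on vehicle arrays. The E2 values all lay inside the vehicle range.

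**Figure D1:**
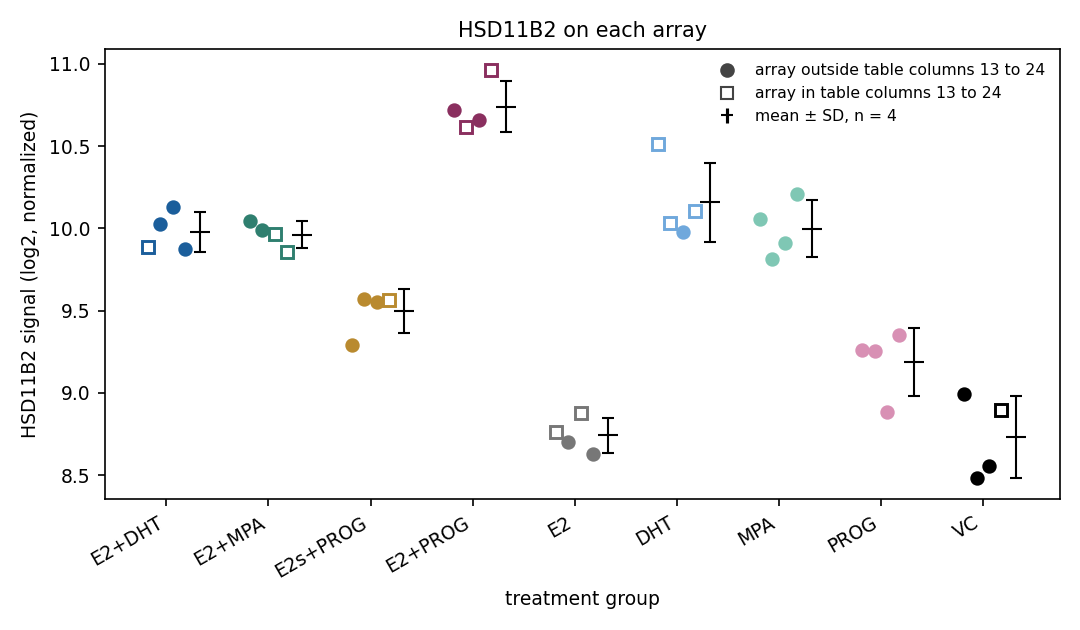
HSD11B2 signal (log2, normalized) on each of the 36 arrays by treatment group, with the mean and SD of 4 arrays beside each group. Squares mark arrays in table columns 13 to 24 and circles the others. The 4 E2+PROG arrays lie between 10.62 and 10.96, above all others, while E2 and VC share the range at the bottom.

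The order of the group means was E2+PROG (10.74 ± 0.16), DHT (10.16 ± 0.24), MPA (10.00 ± 0.17), E2+DHT (9.98 ± 0.12), E2+MPA (9.96 ± 0.08), E2s+PROG (9.50 ± 0.13), PROG (9.19 ± 0.21), E2 (8.74 ± 0.11) and VC (8.73 ± 0.25), each as a log2 level with SD and n = 4. The span from the highest to the lowest mean was 2.01 on the log2 scale, and 98.5% of genes had a smaller span. Of the 36 pairs of groups, 24 passed an adjusted p of 0.05 (limma, Benjamini-Hochberg over all genes in a comparison, also below) and 27 did not overlap. Among the 8 pairs of neighbours in the order only E2+PROG over DHT passed, with a difference of 0.58 (95% confidence interval 0.31 to 0.85, adjusted p = 0.00416), in a comparison that called 5.2% of genes. E2+MPA over E2s+PROG came to 0.47 (adjusted p = 0.0903) and PROG over E2 to 0.45 (adjusted p = 0.107), and neither passed. The arrays of each pair did not overlap. The share of all genes without overlap was not counted for these pairs. In the comparisons where it was counted, it ran between 1.57% and 9.95%.

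The first question is what each steroid did to the transcript in cells held without hormone. DHT and MPA raised HSD11B2, and the differences with PROG and with E2 did not pass. With DHT the level was 10.16 ± 0.24, against 8.73 ± 0.25 with vehicle (SD, n = 4 each), a difference of 1.43 (95% confidence interval 1.16 to 1.70) or 2.69-fold, with an adjusted p of 5.01e-09. That comparison called 2.4% of all genes. Among the arrays of columns 13 to 24 alone, 3 with DHT and 1 with vehicle, the difference was 1.32 (adjusted p = 0.127). The spread of the lone vehicle array is there taken from the other groups, and nothing is read from that p. With MPA the difference from vehicle was 1.27 (1.00 to 1.54) or 2.41-fold, with an adjusted p of 9.64e-08, and 1.88% of genes were called. In neither comparison did the groups overlap for HSD11B2, which held for 5.49% of genes with DHT and 9.95% with MPA.

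Progesterone alone gave a smaller difference that did not pass. The PROG level was 9.19 ± 0.21, against 8.73 ± 0.25 with vehicle (SD, n = 4 each), a difference of 0.46 (95% confidence interval 0.19 to 0.73) or 1.37-fold. Its adjusted p was 0.117, PROG replicate 3 at 8.89 lay within the vehicle range, and 0.0574% of genes were called in this comparison. The same difference was 0.69 in the authors' processed values (adjusted p = 0.0328), 0.57 with array weights (adjusted p = 0.00688) and 0.51 without the arrays of table columns 13 to 24 (adjusted p = 0.0435), so whether it passed depended on the processing. The median over all genes was -0.11 for PROG and -0.10 for MPA against vehicle, so both HSD11B2 differences are larger by that amount relative to it.

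With E2 alone no difference passed. The difference between E2 and vehicle was 0.01 (95% confidence interval -0.26 to 0.28, adjusted p = 0.976), in a comparison that called 1.86% of genes. The upper bound of the interval is 1.21-fold. On the same arrays the progesterone receptor gene PGR, a standard estrogen target, was above background on 4 of 4 E2 arrays and 1 of 4 vehicle arrays, and was at least 7.55-fold higher with E2 (adjusted p = 2.32e-11).

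The combined treatments were all above vehicle. E2+PROG exceeded vehicle by 2.01 (95% confidence interval 1.74 to 2.28) or 4.02-fold, with an adjusted p of 3.81e-13 and 5.8% of genes called. E2+DHT exceeded it 2.37-fold (adjusted p = 3.52e-08, 4.66% called), E2+MPA 2.35-fold (adjusted p = 4.71e-08, 3.82% called) and E2s+PROG 1.70-fold (adjusted p = 0.000337, 2.03% called). All of these share the vehicle arrays with the single-steroid comparisons.

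**Figure D2:**
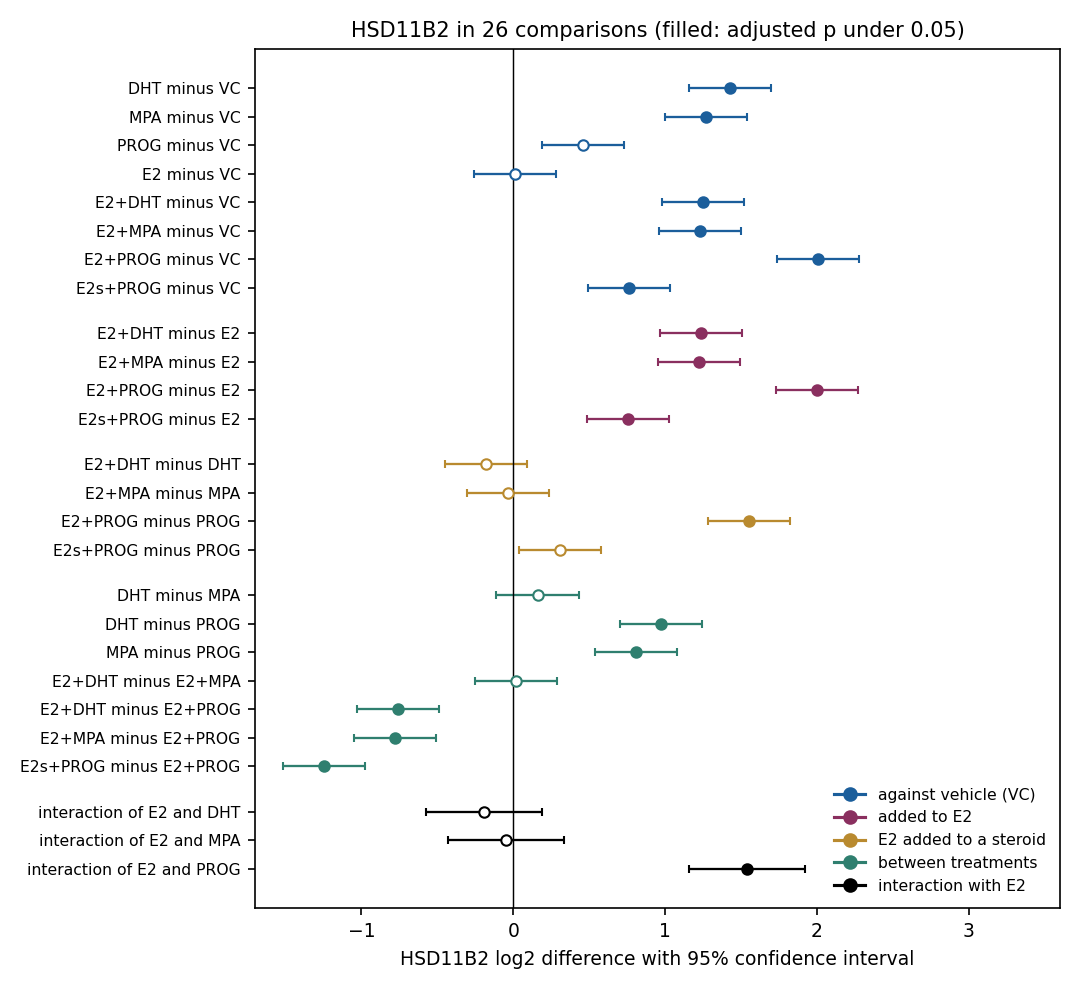
HSD11B2 log2 difference with its 95% confidence interval in 26 comparisons, grouped by the kind of comparison. Filled points passed an adjusted p of 0.05 and open points did not. PROG, E2 and the additions of E2 to DHT or MPA are open, while E2+PROG stands at 2.01 over vehicle.

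The second question is what each steroid added to E2. HSD11B2 was higher than with E2 alone in all 4 combined treatments. PROG alone gave the smallest difference of DHT, MPA and PROG, while E2+PROG gave the largest here and E2s+PROG the smallest. Of the combined treatments only E2+DHT has a labelled E2 dose. In the others the E2 dose and the added progestin cannot be told apart. E2+PROG reached 10.74 ± 0.16, against 8.74 ± 0.11 with E2 alone (SD, n = 4 each), a difference of 2.00 (95% confidence interval 1.73 to 2.27) or 4.00-fold, with an adjusted p of 6.74e-13 and 2.51% of genes called. E2+DHT exceeded E2 by 1.24 (0.97 to 1.51) or 2.36-fold, with an adjusted p of 1.29e-07 and 1.08% called. E2+MPA exceeded E2 by 1.22 (0.95 to 1.49) or 2.33-fold, with an adjusted p of 1.4e-07 and 2.14% called. E2s+PROG exceeded E2 by 0.75 (0.48 to 1.02) or 1.69-fold, with an adjusted p of 0.00448. HSD11B2 was there 1 of 11 genes called, 0.0902% of those tested. That call was lost with median scaling (0.63, adjusted p = 1.0), in a fit of these groups alone (0.75, adjusted p = 0.128) and outside columns 13 to 24 (0.81, adjusted p = 0.191). HSD11B2 did not overlap between the groups in any of these comparisons, which held for 6.23% of genes with E2+PROG, 3.93% with E2+DHT, 5.12% with E2+MPA and 1.57% with E2s+PROG.

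The third question is what E2 added to each steroid. E2 given with PROG gave a higher level than PROG alone, and no such difference passed for DHT or MPA. E2+PROG stood at 10.74 ± 0.16, against 9.19 ± 0.21 with PROG (SD, n = 4 each), a difference of 1.55 (95% confidence interval 1.28 to 1.82) or 2.93-fold, with an adjusted p of 1.79e-10 and 4.81% of genes called. E2+DHT minus DHT was -0.18 (-0.45 to 0.09, adjusted p = 0.623, 1.33% called). E2+MPA minus MPA was -0.04 (-0.31 to 0.23, adjusted p = 0.905, 1.35% called). E2s+PROG minus PROG was 0.31 (0.04 to 0.58, adjusted p = 0.528, 1.31% called), and its arrays overlapped.

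The interaction terms test whether E2 changed the response to each steroid, with E2+PROG as the combined group for PROG. For PROG the response was larger with E2 by 1.54 on the log2 scale (95% confidence interval 1.16 to 1.92), a ratio of 2.91 between the fold changes, with an adjusted p of 1.62e-06 in a test that called 1.54% of genes. For DHT the term was -0.19 (-0.57 to 0.19, adjusted p = 0.932, 0.0082% called), and for MPA it was -0.05 (-0.43 to 0.34, adjusted p = 0.894, 0.0656% called). The MPA term called 8 genes, and 955 without vehicle replicate 2. E2s+PROG entered no term, and stood 0.75 over E2, beside 0.46 for PROG over vehicle. The E2 and vehicle arrays enter all of these terms. The dose of E2 in E2+PROG and E2+MPA is not given, so the E2 dose and the presence of progestin cannot be told apart in those terms.

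**Figure D3:**
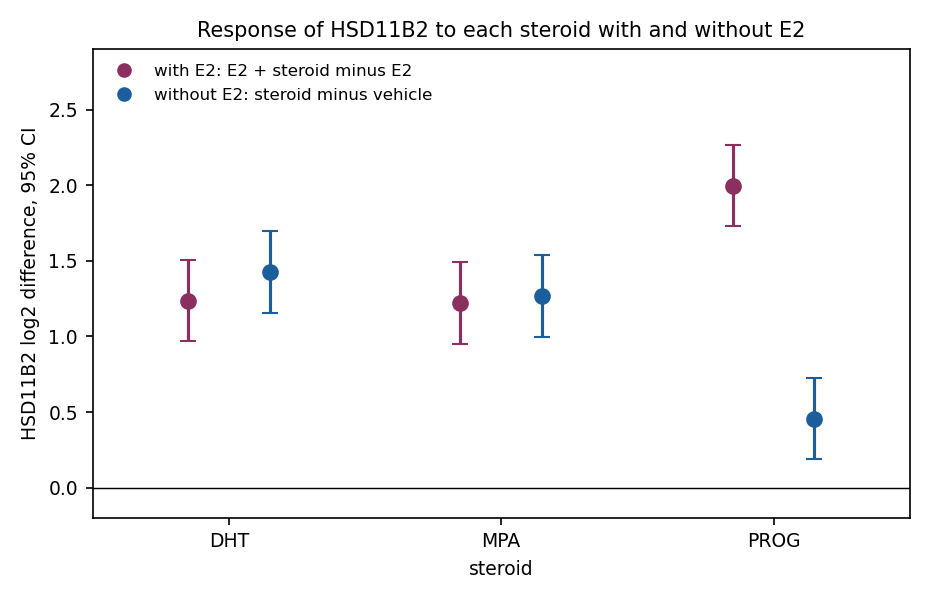
HSD11B2 log2 difference with its 95% confidence interval for DHT, MPA and PROG, given with E2 and set against E2 (left point of each pair) or given alone and set against vehicle (right point). The pairs for DHT and MPA have overlapping intervals, while PROG stands at 2.00 with E2 (the E2+PROG group) and 0.46 without.

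Between steroids, given alone, DHT and MPA differed from PROG and a difference between DHT and MPA did not pass. MPA keeps the progesterone skeleton with an added methyl and an acetoxy group, and the labels give no dose for either, so the pair compares the treatments as given. MPA exceeded PROG by 0.81 (95% confidence interval 0.54 to 1.08) or 1.75-fold, with an adjusted p of 0.000521 and 0.459% of genes called. DHT exceeded PROG by 0.97 (0.70 to 1.24) or 1.96-fold, with an adjusted p of 1.28e-05 and 1.38% called, a call lost with median scaling (0.74, adjusted p = 0.0765) and outside columns 13 to 24 (0.79, adjusted p = 0.254). DHT minus MPA was 0.16 (-0.11 to 0.43, adjusted p = 0.589, 0.312% called).

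With E2 present the order turned for E2+PROG. E2+MPA minus E2+PROG was -0.78 (95% confidence interval -1.05 to -0.51, adjusted p = 0.000284), a ratio of 0.584, and 2.43% of genes were called. E2+DHT minus E2+PROG was -0.76 (-1.03 to -0.49, adjusted p = 0.000244, 3.29% called). With median scaling the second was -0.64 (adjusted p = 0.0808), and outside columns 13 to 24 the first was -0.67 (adjusted p = 0.16). E2+DHT minus E2+MPA was 0.02 (-0.25 to 0.29, adjusted p = 0.975, 0.525% called). For E2s+PROG the order of the means did not turn. It lay below E2+DHT by 0.48 (adjusted p = 0.0975, 0.82% called) and below E2+MPA by 0.47 (adjusted p = 0.0903, 0.951% called), and neither passed. The 2 groups that both combine E2 with progesterone were far apart. E2s+PROG reached 9.50 ± 0.13, against 10.74 ± 0.16 in E2+PROG (SD, n = 4 each), a difference of -1.24 (-1.51 to -0.97) with an adjusted p of 6.55e-08 and 1.74% of genes called.

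The authors' processed values, which had a background subtracted and 1 scale applied per array, are given on a linear scale. E2+PROG arrays read 1211.7, 947.5, 1228.6 and 1171.3. PROG arrays read 442.8, 442.3, 342.2 and 477.5. Vehicle arrays read 260.2, 256.5, 259.6 and 272.0. In this table no PROG array overlapped vehicle, and no array of another group reached the lowest E2+PROG array. E2 arrays ran between 264.7 and 299.1, and the highest array outside E2+PROG was DHT replicate 1 at 896.7. The MPA mean (745.7) was above the DHT mean (739.3), the reverse of their order after quantile normalization, and PROG minus vehicle passed in these values, as given above.

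**Figure D4:**
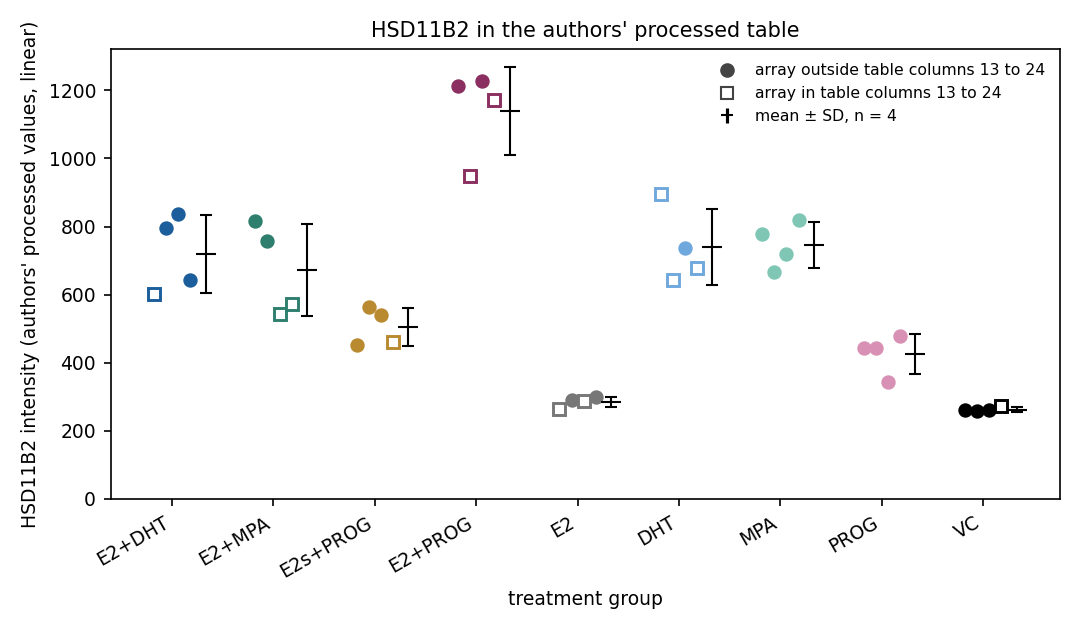
HSD11B2 intensity on a linear scale in the authors' processed table, by array and treatment group, with the mean and SD of 4 arrays. Squares mark arrays in table columns 13 to 24. PROG arrays lie between 342.2 and 477.5, above the vehicle arrays at 256.5 to 272.0.

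Of the enzymes and receptors that set what HSD11B2 does to a cell, HSD11B1 was detected on 0 of 36 arrays and was not tested. H6PD passed in none of the 26 comparisons, with DHT at -0.18 (95% confidence interval -0.89 to 0.52, adjusted p = 0.88) against vehicle. NR3C1, the glucocorticoid receptor, passed in none either, and stood at -0.55 for E2+PROG against vehicle (adjusted p = 0.192). NR3C2, the mineralocorticoid receptor, fell by 0.85 with E2+PROG (adjusted p = 0.00763) and by 0.73 with E2+MPA (adjusted p = 0.0382) against vehicle. A second NR3C2 probe was at -0.78 (adjusted p = 0.151) and -0.23 (adjusted p = 0.793) in the same comparisons, in a fit of all kept probes where the first had an adjusted p of 0.0106 and 0.0524.

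Of 11 tested steroid receptors and their chaperones, DHT and MPA each raised 1, FKBP5, and E2 raised 1, PGR, over vehicle, while E2+PROG raised 1 and lowered 2 against E2. In either direction these comparisons called 2.4% (DHT), 1.88% (MPA), 1.86% (E2) and 2.51% (E2+PROG against E2) of all genes. PGR was above background on 4 of 4 arrays of every group that had E2, 2 PROG arrays, 1 vehicle array and 0 arrays with DHT or MPA alone. Its log2 level was 7.39 ± 0.57 in E2+PROG and 6.97 in E2+MPA, against 8.94 ± 0.36 in E2. It fell by 1.55 with E2+PROG (adjusted p = 3.44e-05) and by 1.97 with E2+MPA (adjusted p = 8.82e-07) against E2. In E2s+PROG the difference from E2 was -0.75 and did not pass (adjusted p = 1.0). ESR1, the estrogen receptor α gene, fell by 1.03 in E2+PROG against E2 (adjusted p = 0.000258) and by 0.81 against PROG (adjusted p = 0.00297). Whether these receptor levels bear on HSD11B2 was not tested.

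Other genes of the pathway are given as lists, counted by members called higher or lower. Against vehicle 1.09% of all genes were called higher with DHT, 0.902% with MPA, 0.0328% with PROG and 1.19% with E2. Against E2 the share called higher was 1.86% with E2+PROG, 0.853% with E2+DHT, 1.23% with E2+MPA and 0.082% with E2s+PROG. Higher and lower together, the shares against vehicle were 2.4% with DHT, 1.88% with MPA, 0.0574% with PROG and 1.86% with E2. Against E2 they were 2.51% with E2+PROG, 1.08% with E2+DHT, 2.14% with E2+MPA and 0.0902% with E2s+PROG. Where no member of a list below was called, the count is near these shares and is not a result about those genes.

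Of 17 genes of corticosteroid interconversion and clearance, 8 were tested. DHT and MPA each raised 2 of them, HSD11B2 and AKR1C3, and PROG raised 0. AKR1C3 encodes an aldo-keto reductase that makes testosterone and reduces progesterone. It was at least 2.53-fold higher with DHT (adjusted p = 1.75e-05) and at least 2.63-fold higher with MPA (adjusted p = 1.01e-05), with 2 of 4 vehicle arrays above background. E2+PROG raised 3 over E2, HSD11B2, AKR1C2 (at least 8.99-fold, adjusted p = 1.91e-15) and AKR1C3 (at least 8.84-fold, adjusted p = 7.93e-13), with 1 and 3 of the 4 E2 arrays above background for the pair. AKR1C2 encodes a related reductase that inactivates DHT. AKR1C genes are close copies, so their probes may share signal. The list's median was 0.26 in E2+PROG against E2, beside -0.03 for all genes, and 0.02 without HSD11B2.

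E2 raised 1 of the 8 over vehicle. This was SERPINA6, which encodes the corticosteroid-binding globulin of plasma, at least 1.28-fold higher (adjusted p = 0.000119), with 4 E2 arrays and 0 vehicle arrays above background. Of 5 tested genes of corticosteroid synthesis, 1 passed in any comparison, FDX1, the electron carrier of the mitochondrial steps. The share of all genes that passed in any comparison was not counted, so 1 of 5 is not a result about this list. FDX1 was at least 1.77-fold higher with MPA than with vehicle (adjusted p = 0.0426), where 1.88% of all genes were called. Its log2 level ran between 5.08 and 7.37 on vehicle arrays (SD 1.07), with 3 of 4 above background. With MPA it ran between 7.64 and 7.85.

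Of 19 tested short-chain dehydrogenases of steroids and retinoids, the enzyme family that holds HSD11B2, DHT and MPA each raised 1, PROG raised and lowered 0, and E2 lowered 1 against vehicle. Against E2, E2+DHT and E2+PROG each raised 1 and lowered 1, and 0 were called with E2+MPA or E2s+PROG. HSD17B2 encodes an enzyme that oxidises estradiol to estrone and testosterone to androstenedione. Its log2 level was 8.94 ± 0.46 with DHT, against 7.39 ± 0.37 with vehicle (SD, n = 4 each), a difference of 1.55 (adjusted p = 3.78e-05), and MPA gave 1.25 (adjusted p = 0.000939). E2+DHT raised it by 1.00 over E2 (adjusted p = 0.0128). E2+PROG minus E2 was 0.35 for HSD17B2 (adjusted p = 0.779) beside 2.00 for HSD11B2, and PROG minus vehicle was 0.28 (adjusted p = 0.422). RDH16, a retinol dehydrogenase, was at least 2.96-fold higher with E2+PROG than with E2 (adjusted p = 2.07e-06, 2 of 4 E2 arrays above background). DHRS3, which reduces retinal to retinol, fell by 0.82 in the same comparison (adjusted p = 0.00151) and by 0.82 with E2 against vehicle (adjusted p = 0.00176).

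Of 15 tested genes that the glucocorticoid and mineralocorticoid receptors both act on, DHT and MPA raised 3 each, PROG and E2 raised 0, and 0 fell. FKBP5, a co-chaperone that holds back steroid receptors, reached 11.44 ± 0.05 with DHT, against 9.57 ± 0.10 with vehicle (SD, n = 4 each), a log2 difference of 1.87 (adjusted p = 1.14e-11). NFKBIA, the inhibitor of NF-κB, rose by 0.73 with DHT (adjusted p = 0.000262) and by 0.52 with MPA (adjusted p = 0.0146). SGK1, a kinase that stabilises the epithelial sodium channel, rose by 0.93 with MPA (adjusted p = 0.0193). Over E2, E2+DHT raised 5 of the 15, E2+MPA 6, E2+PROG 6 and E2s+PROG 0. The list medians were 0.46 with DHT, 0.38 with MPA and -0.01 with PROG against vehicle, and 0.47 for E2+PROG against E2, beside medians over all genes between -0.11 and -0.03. MT2A, a metallothionein, rose by 1.75 with E2+PROG over E2 (adjusted p = 6.89e-05), where E2+DHT minus E2 was 0.18 (adjusted p = 0.999).

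Of 9 tested genes of aldosterone-sensitive sodium and potassium transport, 0 passed with DHT, MPA or PROG alone against vehicle, where 2.4%, 1.88% and 0.0574% of all genes were called. With these shares 0 of 9 is near the background and is not a result about these genes. E2 raised 2 and lowered 1 against vehicle (1.86% of all genes called). Over E2, E2+DHT raised 1, E2+MPA 2, E2+PROG 4 and E2s+PROG 1, and 0 fell. Whether the list differs between groups with and without E2 was not tested. SCNN1G and SCNN1B encode the γ and β subunits of the epithelial sodium channel. SCNN1G reached 7.92 ± 0.29 with E2+PROG, against 6.64 ± 0.11 with E2 (SD, n = 4 each), a difference of 1.28 (adjusted p = 2.04e-07). With E2 alone it was at least 1.54-fold higher than with vehicle (adjusted p = 3.51e-06), where 0 vehicle arrays were above background. SCNN1B rose by 0.91 with E2 over vehicle (adjusted p = 0.00397) and by 0.79 with E2+PROG over E2 (adjusted p = 0.0143), the second with overlapping arrays. NEDD4L, the ubiquitin ligase that removes the channel, fell by 0.72 with E2 (adjusted p = 0.047) and rose over E2 by 1.04 with E2+DHT, 1.36 with E2+MPA and 1.28 with E2+PROG (adjusted p = 0.00194, 2.55e-05 and 4.32e-05). SCNN1A, the α subunit, was at 0.46 for E2+PROG against E2 (adjusted p = 0.0516) and rose by 0.67 for E2+PROG against PROG (adjusted p = 0.00079).

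A list of 26 genes known as progestin-induced in breast or endometrium, which holds HSD11B2 itself, had 22 tested members. PROG alone raised 0 of them, DHT 4, MPA 6, E2+DHT 5 over E2, E2+MPA 7, E2+PROG 8 and E2s+PROG 1, and 0 fell in these comparisons. PROG alone called 0.0328% of all genes higher, so 0 of 22 is near the background and not a result about these genes. The shares of all genes called higher were 1.09% with DHT and 0.902% with MPA. Over E2 they were 0.853% with E2+DHT, 1.23% with E2+MPA, 1.86% with E2+PROG and 0.082% with E2s+PROG. The 1 member called in E2s+PROG against E2 was HSD11B2. In E2s+PROG 5 members were lower than in E2+PROG, HSD11B2 among them, where 1.35% of all genes were called lower. STAT5A, a mediator of prolactin signals, was at least 2.53-fold higher with E2+PROG (adjusted p = 6.17e-07) and at least 2.33-fold higher with E2+MPA (adjusted p = 4.39e-06) than with E2, where 1 of 4 arrays was above background. For E2+DHT its difference from E2 was -0.04 (adjusted p = 0.999).

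Of 14 genes for factors reported to act on the HSD11B2 promoter, all of them tested, 0 passed with DHT, MPA or PROG against vehicle or with any of the 4 additions to E2. These comparisons called 0.0574% to 2.51% of all genes, so 0 of 14 is near the background and is not a result about these genes. EGR1, a zinc finger factor of the immediate early response, rose by 0.83 with E2 over vehicle (adjusted p = 0.0238), the comparison in which HSD11B2 was at 0.01.

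Genes whose group means were most like those of HSD11B2 were ranked by Pearson's r over the 9 group means, among 1453 genes whose means span at least 1 on the log2 scale. All genes share the same arrays, and r over these candidates had a median of 0.07 and a 95th percentile of 0.642. The most alike were C1orf116 (0.931), FKBP5 (0.906), AKR1C3 (0.902), S100P (0.897), SGK1 (0.887), TTC21A (0.879), ARHGEF37 (0.878), EMP1 (0.875), VSTM2L (0.872) and SGPP2 (0.870). Spearman's rho over the 36 arrays ran between 0.692 for SGK1 and 0.839 for C1orf116. The least alike were NDST4 (-0.920), SORBS2 (-0.915), RNF43 (-0.892) and CDH10 (-0.886).

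The likeness differed by group. The genes named here were picked because their group means follow those of HSD11B2, so changes in its direction are a description. C1orf116 was at least 19.4-fold higher with DHT than with vehicle (adjusted p = 3.17e-18), at least 5.14-fold higher with MPA (adjusted p = 2.21e-11) and at least 1.86-fold higher with PROG (adjusted p = 0.00375), with 0 vehicle arrays above background. Its log2 level was 10.52 ± 0.23 in E2+DHT and 10.42 ± 0.19 in E2+PROG, while HSD11B2 was lower in E2+DHT than in E2+PROG. For E2+DHT minus E2+PROG, C1orf116 was at 0.10 (adjusted p = 0.909) and FKBP5 at 0.05 (adjusted p = 0.948). AKR1C3 fell by 2.51 (adjusted p = 2.36e-10), with 7.15 ± 0.37 in E2+DHT and 9.66 ± 0.15 in E2+PROG. S100P, a calcium-binding protein gene, rose by 1.16 with E2+PROG over E2 (adjusted p = 0.000726), and its difference for E2+MPA over E2 was 0.28 (adjusted p = 0.575).

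**Figure D5:**
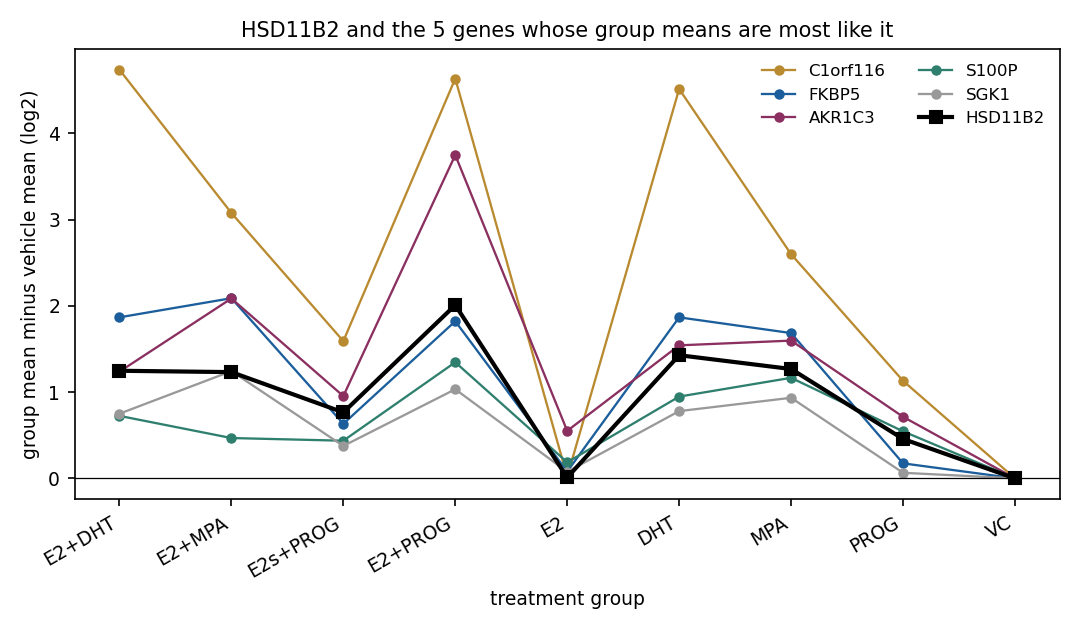
Group mean minus vehicle mean (log2) for HSD11B2 (thick line, squares) and the 5 genes whose group means were most like it, by treatment group. C1orf116 and AKR1C3 were near background on vehicle arrays, so that their differences from vehicle are measured against background. SGK1, with a vehicle mean of 6.23, was only a little above it. HSD11B2 stands highest in E2+PROG at 2.01 and at 0.01 in E2.

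The nearest genes on the chromosome were read from the RefSeq gene table of assembly GRCh38.p14, with 4 on each side. Of these 8, 5 were tested, TPPP3, ZDHHC1, ATP6V0D1, RIPOR1 and CTCF. Against vehicle 0 of the 5 passed with any treatment. These comparisons called 0.0574% to 5.8% of all genes, so 0 of 5 is near the background and is not a result about these genes. ZDHHC1, the nearest gene on one side and a palmitoyltransferase, rose by 0.72 with E2+MPA (adjusted p = 0.00182) and by 0.58 with E2+PROG (adjusted p = 0.0173) over E2. Its neighbour on the other side, ATP6V0D1, a subunit of the vacuolar proton pump, was at 0.46 (adjusted p = 0.166) and 0.23 (adjusted p = 0.856) in these comparisons.

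Of the basal, stromal and leukocyte list 5 genes were tested, and 1 passed with DHT against vehicle (2.4% of all genes called) and with E2+DHT against E2 (1.08% called). This was VWF, which encodes von Willebrand factor, at least 3.63-fold higher with DHT (adjusted p = 5.69e-05) and at least 3.49-fold higher with E2+DHT (adjusted p = 6.73e-05). The summed normalized signal of the 5 ran between 1023 and 1381 on DHT arrays, 859 and 1552 with MPA, 1033 and 1310 with PROG, 996 and 1297 with E2, 1129 and 1355 with E2+DHT, 699 and 1216 with E2+MPA, 1042 and 1266 with E2+PROG, 1017 and 1178 with E2s+PROG, and 769 and 944 on vehicle arrays. Of 7 tested housekeeping genes 0 passed against vehicle with DHT, MPA, PROG or E2, or against E2 with a combined treatment. These comparisons called 0.0574% to 2.51% of all genes, so 0 of 7 is near the background and is not a result about these genes. Their part in the HSD11B2 differences was not tested. In bulk RNA fewer cells of a type and less RNA per cell cannot be told apart. A run of neighbouring arrays, columns 13 to 24 of the deposited table, holds 12 arrays, 3 of them DHT and 1 vehicle. HSD11B2 residuals averaged 0.04 in that run and -0.02 outside it. The first component of the residuals over all genes took 49.4% of their variance, and its r with the HSD11B2 residuals was -0.35, beside a median of -0.30 over genes. With the run as a block the DHT difference was 1.39 and the difference of E2+PROG from E2 was 2.00. Outside the run, vehicle replicate 1 had a score of -53.8 on that component and the lowest array weight of the 36 (0.16), and its HSD11B2 residual was 0.26. Without it the difference from vehicle was 1.51 with DHT (adjusted p = 4.92e-09) and 0.54 with PROG (adjusted p = 0.42). The part of this component in the HSD11B2 differences was not tested further.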

How the data were processed

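Total RNA was extracted with a column kit and labelled as biotinylated cRNA, according to the labels' protocols. A linear probe intensity that had not been normalized was deposited by the authors with a detection p-value for each probe and array, per the file headers. The deposited table of processed intensity had a background subtracted and a scale applied per array, as its values show; its software is not given in the sources used here.

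All 36 arrays were processed in R 4.3.3 with limma 3.58.1. The deposited intensity was background-corrected with a normal-exponential fit that takes its negative controls from detection p (offset 16), then quantile normalized and put on the log2 scale. Probes with a detection p under 0.05 on at least 4 arrays were kept (21116 of 48803). The kept probe with the highest mean stood for each gene, giving 12195 genes. Symbols came from the platform annotation. A probe had 1 symbol in 27578 cases, several in 13 and none in 21212, and 27541 matched the RefSeq gene table (GRCh38.p14) by gene ID. Groups came from the labels.

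A limma model with 1 mean per group (27 residual degrees of freedom) gave 23 differences and 3 interactions, with Benjamini-Hochberg adjustment over all genes of a comparison, a threshold of 0.05 and 95% confidence intervals. The fit was tested on simulated data with independent noise for each gene and array, which leaves out variation shared between genes. Where a gene was above background on fewer than 4 arrays of the dimmer group, its fold is given as "at least", with each such array at its lowest signal above background or the gene's own, whichever was higher.

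HSD11B2, the gene lists and the comparisons were chosen with earlier results of these data known. Named genes are HSD11B2, the 10 most and 4 least alike, fixed receptors, enzymes and targets, up to 4 called members per list and 4 neighbours per side. 1 fixed gene is not reported here. Alternatives changed the background step, normalization, probe filter, probe choice, arrays in the fit, weights, blocks and test.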

Additional observations from a re-analysis of the deposited data

Results flagged for a closer look

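In E2s+PROG, 1 of the 9 groups, the gap of the most distant array divided by the group's range was 0.942 for HSD11B2, above Dixon's 95% critical value for 4 values. Replicate 1 stood at 9.29 and the other 3 arrays between 9.55 and 9.57 on the log2 scale. Chance flags about 1 in 20 groups, and 9 were checked. Without replicate 1 the difference from E2 was 0.82 and from E2+PROG -1.18.

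The response to PROG differed with and without E2 by an interaction test for HSD11B2 (1.54, adjusted p = 1.62e-06, limma). The test used E2+PROG and not E2s+PROG, which stood 0.75 over E2. Of all genes tested, 1.54% passed the same test. Among the listed genes and those like HSD11B2 that passed with a larger PROG response under E2 the terms were 3.48 for C1orf116, 3.16 for AKR1C2, 2.48 for AKR1C3, 2.28 for EMP1, 1.88 for RDH16, 1.84 for VSTM2L, 1.65 for SGPP2, 1.63 for MT2A, 1.57 for FKBP5, 1.52 for NEDD4L, 1.47 for STAT5A, 1.24 for ARHGEF37, 1.11 for SCNN1G, 1.03 for STK39 and 0.71 for KLF9. The terms were -1.15 for ESR1 and -1.68 for PGR, whose response to PROG was lower under E2. ESR1 ran between 9.82 and 11.13 on vehicle arrays (SD 0.63) and between 10.83 and 10.97 on PROG arrays. Its term with single arrays left out was not tested. PGR also had a term of -1.79 for MPA (adjusted p = 0.0221). AKR1C2, AKR1C3, C1orf116, RDH16, STAT5A, SCNN1G, VSTM2L and PGR were at background on some arrays of the groups without E2, so the size of their terms is measured against background. C1orf116, FKBP5, AKR1C3, ARHGEF37, EMP1, VSTM2L and SGPP2 were picked because their group means follow those of HSD11B2, so their terms are a description. For DHT 0 of the listed or like genes passed, where 0.0082% of all genes did.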

How the results depend on the processing

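Of 609 HSD11B2 values under alternatives, 589 stayed on their side of the threshold, 17 no longer passed and 3 newly passed. No difference that passed changed sign. Differences that passed neither way changed sign in 24 values of 7 comparisons, with ranges of -0.08 to 0.18 for E2 minus vehicle, -0.15 to 0.25 for DHT minus MPA, -0.33 to 0.07 for E2+DHT minus DHT, -0.17 to 0.07 for E2+MPA minus MPA, -0.04 to 0.11 for E2+DHT minus E2+MPA, and -0.28 to 0.04 and -0.35 to 0.04 for the interactions of E2 with DHT and with MPA. Where a called value changed, the cause was not tested unless stated. PROG minus vehicle passed at 0.69 in the authors' processed values, 0.57 with array weights and 0.51 outside table columns 13 to 24 (adjusted p = 0.0328, 0.00688 and 0.0435, limma), and over all its alternatives the adjusted p ran between 0.00688 and 0.42. With median scaling in place of quantile normalization, E2s+PROG minus E2 was 0.63, DHT minus PROG 0.74 and E2+DHT minus E2+PROG -0.64, and none passed (adjusted p = 1.0, 0.0765 and 0.0808). In a fit of only the groups compared, which has fewer arrays, E2s+PROG stood at 0.76 over vehicle and 0.75 over E2 (adjusted p = 0.0799 and 0.128). Outside columns 13 to 24, again with fewer arrays, E2s+PROG minus E2 was 0.81, DHT minus PROG 0.79 and E2+MPA minus E2+PROG -0.67 (adjusted p = 0.191, 0.254 and 0.16). Inside those columns, with 1 to 3 arrays a group and a lone array taken to vary like the other groups, the differences from vehicle were 1.32 for DHT, 0.99 for E2+DHT, 1.01 for E2+MPA and 0.67 for E2s+PROG. There E2+DHT minus E2 was 1.07, E2s+PROG minus E2 0.75, E2+DHT minus E2+PROG -0.90, E2+MPA minus E2+PROG -0.88 and E2s+PROG minus E2+PROG -1.23, and none of these passed (adjusted p between 0.0528 and 1). MPA and PROG alone have 0 arrays in the run, so their comparisons have no value there. The block of columns with vehicle replicate 1 left out was chosen after seeing the data.

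Leaving out each array in turn changed no HSD11B2 call. PROG minus vehicle then ran between 0.37 and 0.56, and the interaction of E2 and PROG between 1.44 and 1.63. The exact permutation test over 4 against 4 arrays cannot go below 0.0286, its p for DHT against vehicle. With the replicate number as a block, the interaction of E2 and PROG stayed at 1.54 (adjusted p = 2.98e-06) and PROG minus vehicle at 0.46 (adjusted p = 0.126), and no HSD11B2 call changed. The correlations between arrays showed no consistent pairing by number, and the labels do not say what a shared number means. Of 92 correlations between same-numbered arrays 43 were over 0.1, all 4 were so in 0 of 23 comparisons, and 10 of 36 arrays correlated best with their own number.

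The number of genes called moved with the processing and with single arrays left out. It was 293 (18 to 1010 under the alternatives) with DHT against vehicle, 229 (40 to 1692) with MPA, 7 (1 to 943) with PROG, 227 (30 to 1516) with E2, 306 (89 to 521) for E2+PROG against E2, 11 (0 to 22) for E2s+PROG against E2, 8 (1 to 955) for the interaction of E2 and MPA and 188 (61 to 607) for that of E2 and PROG. The 1692 genes with MPA, the 943 with PROG and the 955 of the MPA interaction came without vehicle replicate 2, and the 1 gene with PROG without vehicle replicate 3.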
